A study of Mus musculus with 12 samples.

Results

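Neuritin, the product of Nrn1, was measured by 1 probe set (1428393_at) in embryonic mouse cortex, and Nrn1 was 1 of 18194 genes named on the arrays and 1 of 11785 that passed a filter on low values. The probe set names Nrn1 alone, and no probe set names it together with another gene. Nrn1 lies on mouse chromosome 13. It was taken up because it was 1 of 4 genes with an adjusted p under 0.05 for the difference between AP2gamma knockout (KO) and wild-type (WT) cortex averaged over regions, so its KO differences are given as a description, with no test. The genes just inside that threshold were Eomes and Tfap2c (log2 differences of -0.56 and -0.91, adjusted p = 0.038 each by limma), and the nearest outside it were Mt2, Hnrnph2 and Rbm45 (-1.20, 0.46 and 0.47, adjusted p = 0.073 each by limma).

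Neuritin, also called CPG15, is a small protein held on the outer cell surface by a glycosylphosphatidylinositol (GPI) anchor, and it is also released in a soluble form. It was found as a gene switched on by neuronal activity and by neurotrophins, and it promotes the growth of neurites and dendritic arbors, the maturation of synapses and the survival of cortical progenitors. AP2gamma, the product of Tfap2c, is a transcription factor of cortical progenitors, and the series compares cortex with and without it.

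The tissue was caudal or rostral cortex from embryos at embryonic day 14, and no animal number occurs in both regions. There were 4 groups of 3 arrays: caudal cortex of AP2gamma k.o. animals 1, 2 and 13, caudal cortex of wt animals 4, 6 and 14, rostral cortex of AP2gamma k.o. animals 7, 8 and 15, and rostral cortex of wt animals 10, 12 and 16. The labels do not give the strain, the way the gene was deleted or whether embryos were pooled, and p-values measure the spread between these animals. The piece of tissue is a mixture of cells, so fewer cells of a type and less RNA per cell cannot be told apart. On the 12 arrays the median lay between 5.21 and 5.22 on the log2 scale and the mean Spearman correlation with the other arrays of the group between 0.926 and 0.952. The targeted gene Tfap2c read 7.71, 7.86 and 7.44 in caudal KO cortex against 9.19, 8.84 and 8.64 in caudal WT cortex, and 8.11, 8.63 and 8.09 in rostral KO cortex against 9.06, 9.0 and 8.54 in rostral WT cortex. KO signal was lower caudally in every array, rostral KO animal 8 lay above rostral WT animal 16, and the place of the probe set relative to the deletion was not examined here. Caudal WT animal 6 and rostral WT animal 12 had high Xist, the transcript of the inactive X chromosome (11.32 and 11.89), and the other 10 arrays, among them all KO arrays, had Xist at or below 5.48.

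Nrn1 was read far above the filter of 5.21 on every array, and replicate animals gave nearly the same value. In caudal KO cortex the log2 values were 9.83, 9.79 and 9.77 (mean 9.80 ± 0.03 SD, n = 3). In caudal WT cortex they were 10.12, 10.08 and 10.08 (10.09 ± 0.03 SD, n = 3). In rostral KO cortex they were 10.08, 10.14 and 10.16 (10.13 ± 0.04 SD, n = 3), and in rostral WT cortex 10.53, 10.53 and 10.57 (10.55 ± 0.02 SD, n = 3).

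**Figure D1:**
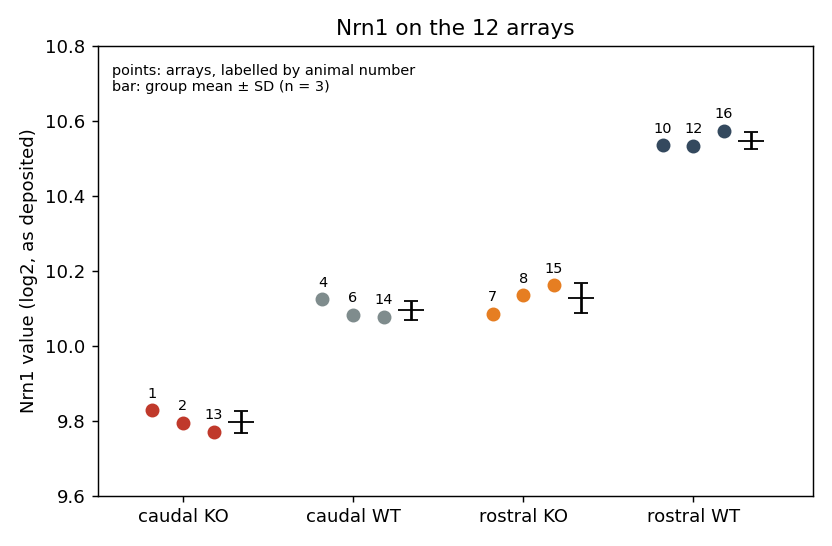
Nrn1 on each of the 12 arrays, as the deposited log2 value, by group, with the animal number beside each point and the group mean ± SD (n = 3) as a bar. Each KO group lies below the WT group of its region, each caudal group lies below the rostral group of its genotype, and rostral KO and caudal WT arrays share the range near 10.1.

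The levels fall into an order of 3 steps, with rostral WT cortex at the top, rostral KO and caudal WT cortex together, and caudal KO cortex at the bottom. Rostral KO cortex stood 0.42 below rostral WT cortex, with the lowest WT array at 10.53 and the highest KO array at 10.16. Rostral KO and caudal WT cortex differed by 0.03 (95% interval -0.11 to 0.18), with overlapping arrays, so these neighbours did not differ beyond their spread. Caudal KO cortex stood 0.30 below caudal WT cortex, with the highest KO array at 9.83 and the lowest WT array at 10.08. The 2 WT arrays of high Xist sat inside the range of Nrn1 in their groups or at its edge, at 10.08 in caudal animal 6 and 10.53 in rostral animal 12.

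The KO level of Nrn1 was the lower one in both regions. The difference was -0.30 ± 0.07 (SE) on the log2 scale in caudal cortex, which leaves 81.4% of the WT signal (95% interval of the log2 difference -0.44 to -0.15). In rostral cortex it was -0.42 ± 0.07, which leaves 74.7% (67.6% to 82.6%). Averaged over regions it was -0.36 ± 0.05, or 78.0% of the WT signal (72.7% to 83.7%), where the median of all genes was -0.01. In each region the highest KO array was below the lowest WT array. KO and WT arrays were apart in this direction for 3.67% of the genes tested in caudal cortex and 7.5% in rostral cortex, and in the other direction for 3.84% and 5.46%. Within a single region no gene passed for KO against WT with limma, and an unadjusted p under 0.05 was found for 478 genes (4.06%) caudally and 789 (6.69%) rostrally. Since this contrast chose the gene, nothing is read from these shares, and the intervals of the KO differences are no test. The KO differences may be larger in size here than in arrays that did not choose the gene.

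These arrays chose the gene, so dividing them gives no replication and is a description. In animals 1 to 12 (2 arrays per group) it was -0.29 in caudal and -0.42 in rostral cortex. In animals 13 to 16 (1 array per group) it was -0.31 in caudal and -0.41 in rostral cortex.

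Averaged over regions, 5.45% of the genes tested had a larger KO difference than Nrn1 in either direction. Among the 4 genes called (0.0339% of those tested, all lower in KO), Nrn1 had the smallest difference and the smallest spread. Its residual standard deviation within groups was 0.030, against a median of 0.197 over all genes, and only 4 genes had a smaller one. Among the 1000 genes nearest to it in mean value, the median was 0.126 and none lay below Nrn1. The moderated spread used by limma, which draws each gene toward genes of like intensity, was 0.082. A choice by p-value favours genes of small spread in these arrays, so the rank of Nrn1 by spread is a description. The same spread enters the region comparisons, so their p-values are not fully independent of how the gene was chosen and may be too small.

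**Figure D2:**
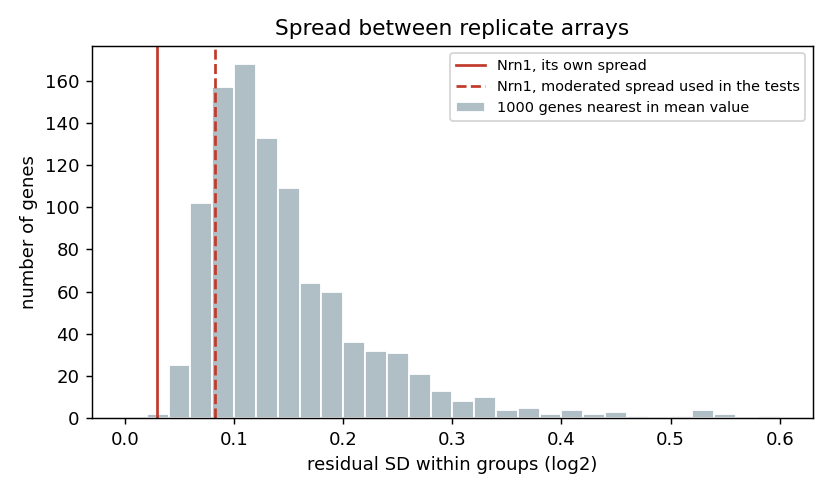
Residual standard deviation within groups, on the log2 scale, of the 1000 genes nearest to Nrn1 in mean value (bars, number of genes per bin of 0.02). The solid line marks Nrn1 at 0.030, where the distribution of these genes begins, and the dashed line marks the moderated value of 0.082 that the tests used.

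The region comparison asks whether Nrn1 differs along the rostral to caudal axis of the cortex, which the transcription factors of area identity pattern at this stage. Nrn1 was lower caudally in both genotypes, and the averaged difference passed the test. Averaged over genotypes it fell by 0.39 in caudal against rostral cortex (-0.39 ± 0.05 SE, limma adjusted p = 0.00049 over all genes tested, 6 arrays per region), which leaves 76.2% of the rostral signal (71.0% to 81.9%). In this comparison 4.46% of the genes were called, 3.21% as lower and 1.26% as higher caudally. An exact permutation test of the Nrn1 value, two-sided with region permuted within genotype, gave p = 0.005, the smallest that its 400 arrangements allow. The averaged difference passed in all 25 alternatives run, with values of -0.40 to -0.37 and adjusted p of 0.00022 to 0.012.

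In WT cortex alone the caudal level was 10.09 against a rostral level of 10.55, a difference of -0.45 ± 0.07 (SE, limma adjusted p = 0.0074, with 0.942% of genes called and 0.687% lower). In 23 of 26 alternatives it passed. It did not pass without the arrays of high Xist, caudal WT 6 and rostral WT 12 (-0.45, limma adjusted p = 0.078). In KO cortex alone the caudal level was 9.80 against a rostral level of 10.13, a difference of -0.33 ± 0.07 (SE, limma adjusted p = 0.039, with 0.95% of genes called and 0.73% lower). This call was at the edge of the threshold and passed in 13 of 26 alternatives. Without any 1 of the 6 KO arrays, or without rostral WT 10, 12 or 16, it did not pass, although over the 12 omissions the value stayed between -0.35 and -0.31 (limma adjusted p = 0.037 to 0.17). In each genotype all caudal arrays of Nrn1 lay below all rostral arrays. That was so for 12.1% of genes in KO and 8.99% in WT cortex, with the opposite order in 8.78% and 4.96%. Nrn1 was 1 of 37 genes (0.314%) called as lower caudally in both genotypes.

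The region difference of Nrn1 was larger than that of most genes tested, and small among the genes called. Of the 378 genes lower caudally in the averaged comparison, Nrn1 ranked 292nd by size. The median size among all called genes was 0.58. Of all genes tested, 10.4% had a larger averaged difference in either direction, and the median size was 0.113.

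**Figure D3:**
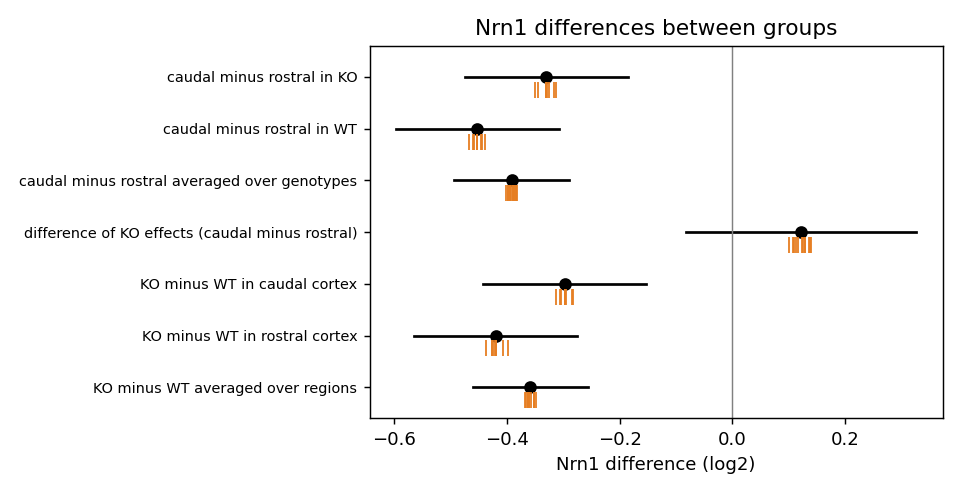
Differences of Nrn1 on the log2 scale for 7 comparisons, as a point with the 95% interval of the limma fit, and below each point the values with 1 array left out (orange ticks). The 3 region and 3 KO differences lie between -0.45 and -0.30, and the difference of the KO effects is 0.12 with an interval that spans 0. The gene was chosen by its KO difference, so the 3 KO intervals are a description and no test.

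Whether the loss of AP2gamma goes with a larger change of Nrn1 in one region was tested as the caudal minus the rostral KO difference. The KO effect was smaller in size caudally by 0.12 ± 0.10 (SE), with a 95% interval of -0.08 to 0.33, and did not pass (limma adjusted p = 1.0, no smaller than 0.87 in 25 alternatives). The value lay between 0.10 and 0.14 with each array left out in turn. With limma, no gene passed here, while 358 genes (3.04%) had an unadjusted p under 0.05. The interval leaves room for a caudal loss larger than the rostral one by 0.08, or smaller by 0.33.

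The pattern of Nrn1 includes the KO differences that chose it, so the counts that follow are a description and nothing is read from how few genes share it. Caudal below rostral in both genotypes and KO below WT in both regions, with no overlap of arrays in any of the 4 comparisons, was found for 12 genes, Nrn1 among them (0.102% of those tested). The mirror pattern was found for 2 genes, Aasdh and Acat1 (0.017%), and 41 genes (0.348%) had no overlap in all 4 comparisons in any mixture of directions. The names that follow were chosen by this pattern. Of the 12 genes, Neurod4, Gna14, Sdk1 and Ino80b had at least 1 group mean below 5.21, where values are close to the background of the table. The other 8, among them Nrn1, were brighter in all 4 groups.

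**Figure D4:**
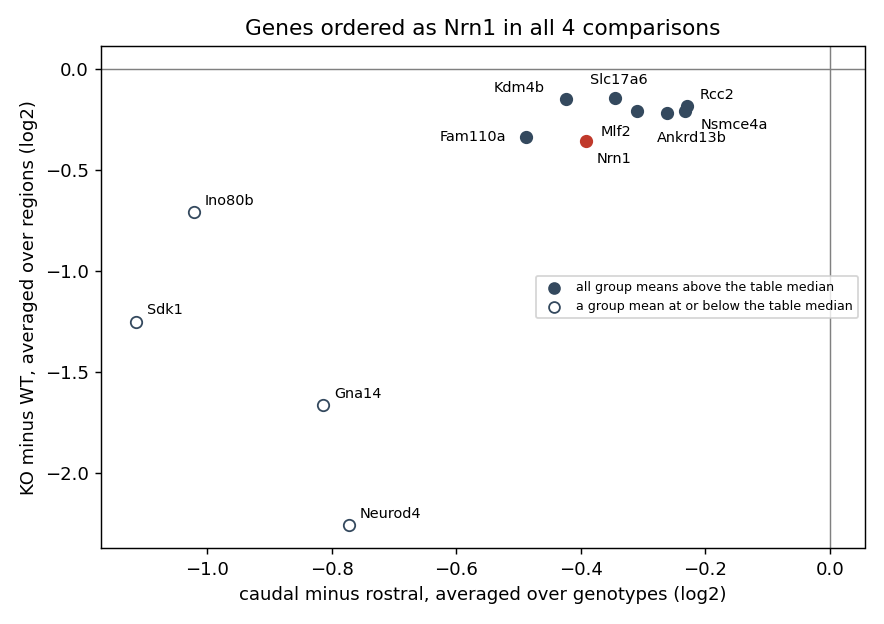
The 12 genes whose arrays were ordered as those of Nrn1 in all 4 comparisons, by their log2 difference between caudal and rostral cortex averaged over genotypes (horizontal) and between KO and WT cortex averaged over regions (vertical). Nrn1 (red) stands at -0.39 and -0.36. Filled points are genes with all group means above the table median. Nrn1 was chosen by its KO difference and the other genes by the pattern, so their places are a description.

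Fam110a, which encodes a protein of the centrosome and spindle poles, was closest to Nrn1 in the size of the averaged KO difference among the 12. Its log2 values were 8.12, 8.08 and 8.14 in caudal KO, 8.55, 8.54 and 8.37 in caudal WT, 8.77, 8.64 and 8.5 in rostral KO, and 8.85, 9.08 and 8.88 in rostral WT cortex. The averaged KO difference was -0.34, which did not pass (limma adjusted p = 0.21), and the averaged region difference -0.49. Its middle groups overlapped, with means of 8.64 in rostral KO and 8.49 in caudal WT cortex. Slc17a6, which encodes the vesicular glutamate transporter VGLUT2, had a KO difference of -0.15 and a region difference of -0.34. Kdm4b, a histone demethylase gene, had -0.15 and -0.42. Neither KO difference passed (limma adjusted p = 0.61 for Slc17a6 and 0.73 for Kdm4b).

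Across the 12 arrays, Fam110a was also the gene with the highest Pearson correlation with Nrn1 (r = 0.922, Spearman rho = 0.867). The next were Ino80b (0.905), a subunit gene of the INO80 chromatin remodeller, Ankrd13b (0.905), Rcc2 (0.905), a mitotic regulator gene, and Mlf2 (0.901). Unc119b (0.895), whose product carries lipid-modified proteins to the cilium, Kdm4b (0.892), Nsmce4a (0.891), of the SMC5/6 complex, Sh3glb1 (0.882), the endophilin B1 gene, and BC034090 (0.878) completed the 10. All 10 had their lowest group mean in caudal KO and their highest in rostral WT cortex, and 2 of them, Ino80b and BC034090, had group means below 5.21. The median r over all 11784 other genes was 0.06, with 5 genes at or above 0.9 and 67 at or above 0.8. These values describe 12 arrays that share 4 groups, and the genes were picked for being extreme.

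Inside the groups these genes did not track Nrn1 in a common direction. With group means removed, the correlations of the 10 genes with Nrn1 ran from -0.44 for Ino80b to 0.54 for Unc119b, and for Fam110a it was -0.40. Within the 6 KO arrays Fam110a had r = 0.901, and within the 6 WT arrays r = 0.923, both of which hold the region difference. Without the arrays farthest from the median of Nrn1, rostral WT 10 and 16, its r was 0.936. By the correlation of the deviations themselves, Plekhm3 (0.944), Il6st (0.922), the shared receptor subunit of the interleukin 6 family, Ninj1 (0.919), Iqce (0.905) and Gm5089 (0.899) came first. The deviations of Nrn1 did not exceed 0.04 on the log2 scale, so these rest on very small shifts.

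The genes of lowest correlation ran the opposite way. Aasdh (r = -0.936) read 9.23, 9.43 and 9.32 in caudal KO, 9.0, 8.98 and 9.19 in caudal WT, 9.10, 9.18 and 9.01 in rostral KO, and 8.66, 8.65 and 8.81 in rostral WT cortex. It was followed by Samm50 (-0.930) of the mitochondrial outer membrane, Acat1 (-0.920), a mitochondrial enzyme of ketone and isoleucine breakdown, Gpsm1 (-0.870), a regulator of G protein signalling, and the neurofilament gene Nefm (-0.863). Nefm had a KO difference of 0.43 and a region difference of 0.53, and its lowest group mean was in rostral WT cortex (7.25), where Nrn1 was highest.

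**Figure D5:**
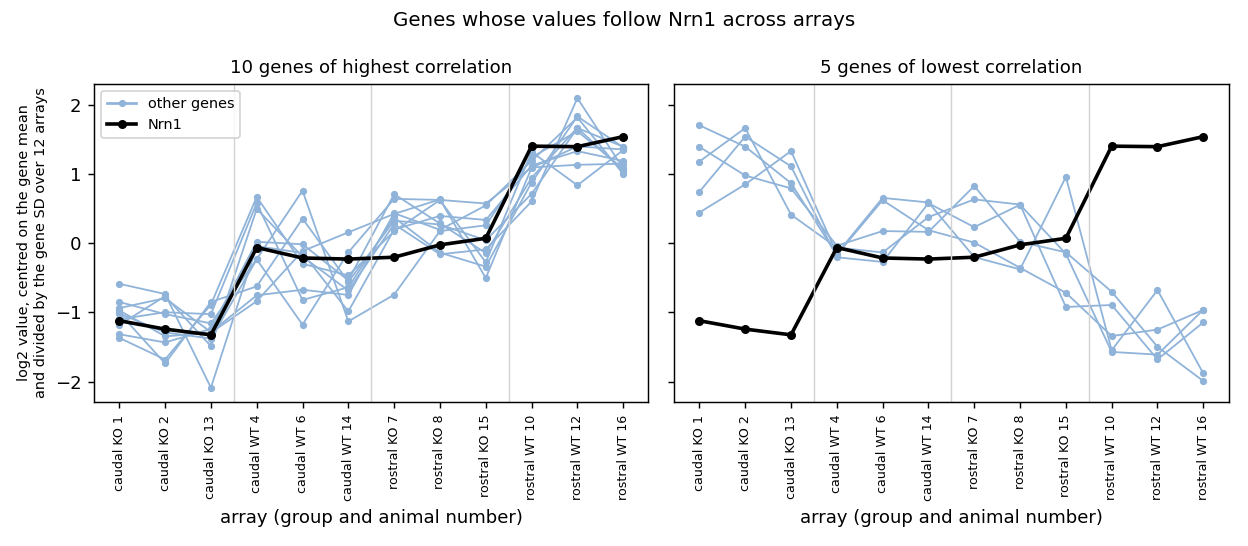
Values of Nrn1 (black) and of the 10 genes of highest (left) and 5 genes of lowest (right) Pearson correlation with it over the 12 arrays, each centred on the gene's mean and divided by its SD, in the order of groups and animals. Nrn1 forms 3 levels with flat steps inside each group, while the other genes (blue) scatter inside groups.

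The 3 genes called together with Nrn1 passed the same KO contrast, so their shared KO difference follows from that choice. Their correlations with Nrn1 over the 12 arrays include it. The region difference of Nrn1 was not shared in each case. Neurod4, a proneural transcription factor gene, followed Nrn1 over the 12 arrays with r = 0.839, the 34th highest. It read 3.99, 4.33 and 3.99 in caudal KO against 6.63, 6.31 and 6.31 in caudal WT cortex. Rostrally the KO arrays gave 4.45, 5.76 and 4.58 and the WT arrays 7.44, 6.88 and 7.09. Its averaged region difference was -0.77 (adjusted p = 0.079 by limma). Eomes, the T-box factor of basal progenitors, had almost no region difference (0.04) and r = 0.567. Its log2 values were 10.30, 10.36 and 10.03 in caudal KO against 10.97, 10.7 and 10.74 in caudal WT cortex. Rostral KO arrays had 10.17, 10.31 and 10.13, against 10.62, 10.99 and 10.66 on rostral WT arrays. Tfap2c had r = 0.719 and an averaged region difference of -0.29, which was -0.61 in KO and 0.02 in WT cortex. Within the 6 KO arrays the r of Tfap2c was 0.832, and within the 6 WT arrays -0.05. For Eomes these were -0.05 and -0.16, and for Neurod4 0.704 and 0.893. Within groups, the correlation with Nrn1 was 0.22 for Neurod4, 0.26 for Eomes and 0.18 for Tfap2c.

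The paralog Nrn1l, which encodes neuritin-like protein, was not read above the filter. Its only probe set read between 1.00 and 4.22 and passed 5.21 on 0 of the 12 arrays. The list of reported partners of neuritin held 4 tested genes, of which none passed in either averaged comparison. Insr, the insulin receptor gene, differed by 0.15 between KO and WT cortex and by 0.18 between caudal and rostral cortex, and Kcnd2, which encodes a potassium channel subunit, by 0.24 and 0.05.

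Of the 12 neurotrophin genes and receptors 8 were tested, with a median KO difference of 0.20, and none passed in either averaged comparison. Bdnf, the neurotrophin that induces Nrn1 in neurons, had a KO difference of -0.51 ± 0.28 (SE, limma adjusted p = 0.74). Its group means lay near the filter, at 4.85 in caudal and 5.06 in rostral KO cortex, below 5.21. In caudal and rostral WT cortex they were 5.47 and 5.45. Ntrk2, its receptor gene, was at 0.18 for KO against WT and at 0.34 for caudal against rostral cortex (limma adjusted p = 0.053). Of 26 activity-regulated genes 17 were tested, 13 of them lower in KO cortex (median -0.15, against -0.01 over all genes), and none passed for KO. Those of smallest p were Gadd45g (-0.28), Nptx1 (0.28) and Creb1 (-0.15). For region 1 of the 17 passed, where 4.46% of all genes did. It was Nr4a2, an orphan nuclear receptor gene also made in subplate neurons, which was higher caudally by 0.80 (limma adjusted p = 0.021). Arc, Fosb, Egr2, Egr4, Npas4 and Vgf were at or below 5.21 on all 12 arrays.

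Genes of neurite growth and of GPI-anchored surface proteins showed no common direction in KO cortex. All 30 neurite growth genes were tested. For KO against WT 16 were higher and 14 lower, with a median of 0.02, and none passed. For region 4 of 30 passed, where 4.46% of all genes did, with the axon guidance receptor genes Robo1 (-0.90, limma adjusted p = 0.0012) and Dcc (-0.87, 0.0028) and the actin regulator gene Marcksl1 (-0.23, 0.014) lower caudally, and the adhesion gene Cntn2 (0.58, 0.049) higher. Of 40 other GPI-anchored surface protein genes 37 were tested, with 22 lower and 15 higher in KO cortex (median -0.03) and none past the test. For region 4 of 37 were lower and 2 higher caudally, where 3.21% and 1.26% of all genes were. The lower ones were Gfra1 (-1.20), a receptor subunit for glial cell line-derived factors, the ephrin ligand genes Efna5 (-1.51) and Efna2 (-0.39) and Ly6e (-0.46), with limma adjusted p of 0.0013, 0.0016, 0.0088 and 0.010.

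Along the region axis Nrn1 went in the direction of the rostral patterning genes. Of 12 tested genes of this list, 9 were lower caudally with limma and none higher, with a median of -0.84, where 3.21% of all genes were lower and their median was -0.02. Among them were Sp8 (-1.84), Etv5 (-1.24) and Pax6 (-0.42), transcription factor genes of which the first and the second act with rostral FGF signals. Of 12 caudal patterning genes 4 were higher and 1, Efna5, lower caudally (1.26% and 3.21% of all genes), with the nuclear receptor genes Nr2f1 (2.03) and Nr2f2 (2.34) and the receptor gene Fgfr3 (1.74) among the higher ones (limma adjusted p of 9.7e-05 for both nuclear receptors and 0.00012 for Fgfr3). None of either list passed for KO against WT, where their medians were 0.13 and -0.14.

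Markers of several cell types were set beside Nrn1. Of 25 basal progenitor genes 21 had lower values in KO cortex (median -0.09, against -0.01 over all genes), and 2 passed, Neurod4 and Eomes, where 0.0339% of all genes did. Both were called by the contrast that chose Nrn1. The mean log2 value over this list ran from 8.73 to 8.94 in caudal KO and from 8.97 to 9.30 in caudal WT arrays, and from 8.89 to 9.09 in rostral KO and 9.07 to 9.21 in rostral WT arrays. Caudal KO and WT arrays were apart by a narrow gap, and rostral ones overlapped, unlike those of Nrn1. Without Neurod4, left out after the values were seen, the mean ran from 8.93 to 9.15 in caudal KO and 9.08 to 9.41 in caudal WT arrays, which overlap. For region 4 of these 25 genes were lower caudally, where 3.21% of all genes were. They were Slc17a6 (-0.34), Insm1 (-0.34), a zinc finger factor of delaminating progenitors, the Notch ligand gene Dll3 (-0.49) and Pax6. Pax6 is also in the radial glia and rostral patterning lists, and Slc17a6 in the thalamic one. The part of the basal progenitor genes in the Nrn1 result was not tested.

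None of the neuron markers passed for KO against WT. Of 16 young neuron genes 9 were higher and 7 lower averaged over regions (median 0.10). In caudal cortex 14 of these 16 were higher in KO (median 0.11), and in rostral cortex 7 (median -0.04). Of 15 subplate and deep layer genes 10 were higher averaged over regions (median 0.08). In caudal cortex 12 of these 15 were higher (median 0.10), and in rostral cortex 8 (median 0.01). For region 3 of the 15 were lower caudally and 1 higher, where 3.21% and 1.26% of all genes were. The transcription factor genes Foxp2 (-1.27, limma adjusted p = 0.00045) and Tbr1 (-0.63, 0.013) were lower. So was the growth regulator gene Ndn (-0.28, 0.022), and Nr4a2 was higher. Of the 16 young neuron genes 1 was lower, Tbr1, and 1 was higher, against the same shares. The higher one was Rbfox3, which encodes the neuronal nuclear protein NeuN (0.37, limma adjusted p = 0.015). Radial glia genes had a median of -0.01 for KO with 9 of 19 higher, and none passed. For region 1 of the 19 was lower caudally, Pax6 (-0.42, limma adjusted p = 0.0017), where 3.21% of all genes were.

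Markers of neighbouring tissues were read in the same way. Of 13 ganglionic eminence and interneuron genes 10 had lower values caudally, 4 of them past the test (3.21% of all genes), among them Isl1 (-4.17), Dlx2 (-1.06) and Dlx1 (-1.16), and 1, Sst, was higher (1.05). The mean over this list ran from 6.24 to 6.94 in caudal KO and 7.13 to 8.06 in rostral KO arrays, and from 6.11 to 6.89 in caudal WT and 7.18 to 7.68 in rostral WT arrays. Isl1 was below 5.21 in caudal cortex. Without it, left out after the values were seen, the mean ran from 6.61 to 7.32 in caudal KO and 7.30 to 8.03 in rostral KO arrays, which overlap, and from 6.37 to 7.14 in caudal WT and 7.18 to 7.70 in rostral WT arrays, which do not. The ventral regulator genes Nkx2-1 and Lhx8 did not pass the filter. Microglia and blood cell genes had lower values caudally for all 9 tested members (median -0.34), and none passed. Their mean ran from 6.32 to 6.69 in caudal KO and 6.87 to 6.99 in rostral KO arrays, and from 6.32 to 6.94 in caudal WT and 6.93 to 7.04 in rostral WT arrays, with Aif1 and Hba-a1 at or below 5.21 on every array. Their part in the region difference of Nrn1 was not tested. Of 11 cortical hem and choroid plexus genes 1 was lower caudally, Otx2, a transcription factor gene (-5.30, limma adjusted p = 0.0082), whose caudal group means were below 5.21. None passed for KO against WT, where 9 had lower values in KO cortex (median -0.50), and 10 of 11 in caudal KO cortex (median -1.03). Their mean ran from 3.81 to 5.82 in caudal KO and 4.72 to 6.91 in caudal WT arrays, and from 5.65 to 6.23 in rostral KO and 5.56 to 6.29 in rostral WT arrays, so the groups overlapped, and Lmx1a, Wnt2b and Bmp6 were at or below 5.21 on every array. Their part in the KO difference of Nrn1 was not tested. For KO against WT none of these genes passed, nor did any Cajal-Retzius, thalamic, vascular or meningeal gene. For region 1 of 10 Cajal-Retzius genes was lower caudally, Calb2 (-1.54, limma adjusted p = 9.7e-05). Another, Cxcr4, was higher (0.49, limma adjusted p = 0.024), where 3.21% of all genes were lower and 1.26% higher. Of 6 thalamic genes 1 was lower caudally, Slc17a6 (-0.34), and of 13 vascular and meningeal genes none passed for region.

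The genes beside Nrn1 on chromosome 13, by their order in the reference annotation, were not called with it in KO cortex. Of the 5 tested genes on each side, none passed for KO against WT, where 0.0339% of all genes did. With so few genes called, nothing is read from this. Their averaged KO differences ran from -0.76 for Ly86, a gene of immune cells, to 0.18 for Lyrm4. The nearest on each side were Fars2 (-0.06) and Ly86. For region 1 of the 10 passed, where 4.46% of all genes did. It was Cdyl, a chromatin regulator gene (-0.59, limma adjusted p = 0.0084).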

How the data were processed

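RNA from 12 cortex pieces (400 ng of total RNA each, amplified and labelled with biotin per the labels) was hybridised to 1-colour arrays. The authors deposited 1 normalised log2 value for each of 45101 probe sets. The unit was read from the values (-3.81 to 14.02, nearly equal quartiles), and the background correction, normalisation and summary methods are not given in the sources used here. Of the probe sets, 34958 named 1 gene, 932 several and 9211 none in the platform annotation. A probe set was tested when it exceeded 5.21, the median of the table, on at least 3 arrays. Where several probe sets of a gene qualified, the brightest on average stood for it.

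The 4 group means were fitted jointly over the 12 arrays in limma 3.58.1 (R 4.3.3). Variances were moderated by empirical Bayes with a trend on intensity, on 8 residual plus 5.37 prior degrees of freedom. P-values are two-sided and adjusted by the Benjamini-Hochberg method over the 11785 genes tested, with a threshold of 0.05. The fit was tested on simulated data. Alternatives left out each array, changed the filter, trend, weights or arrays used, or added a covariate. Neighbouring genes came from the RefSeq annotation (GRCm38.p6).

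The members and lists were chosen with earlier results of these data known. Of the 17 gene lists, which hold 284 genes, 238 genes were tested. Genes named are the 10 of highest and 5 of lowest Pearson correlation with Nrn1, the 5 of highest correlation of the deviations from group means, up to 4 called members of each list (or the 3 of smallest p), the 5 neighbours on each side, and Tfap2c, Neurod4, Eomes, Nrn1l and Xist. The genes that share the pattern of Nrn1 in 4 comparisons, the list members named as dim, and Mt2, Hnrnph2 and Rbm45 were chosen after their values were seen. The number of arrays limits the precision.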

Additional observations from a re-analysis of the deposited data

How the results depend on the processing

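For Nrn1, the averaged region difference and the difference of the KO effects stayed on their side of the threshold in all 25 alternatives each. The KO differences ranged from -0.31 to -0.28 caudally, -0.44 to -0.40 rostrally and -0.37 to -0.35 averaged, over 26, 26 and 25 alternatives. The region difference in KO did not pass without an intensity trend (-0.33, limma adjusted p = 0.082), with only the KO arrays (-0.33, 0.081), without the arrays of high Xist (-0.33, 0.068) and in animals 1 to 12 (-0.30, 0.18). That in WT did not pass with only the WT arrays (-0.45, 0.056), without the arrays of high Xist (-0.45, 0.078) and in animals 1 to 12 (-0.43, 0.059). The exact permutation in animals 1 to 12 gave -0.37 (p = 0.056, the smallest its design allows). With fewer arrays the tests have fewer degrees of freedom. For the other cases the cause was not tested.

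Counts of genes called depended more on the setting. For caudal against rostral in KO there were 112, with 56 (no trend), 637 (array weights), 72 (only KO arrays), 342 (animals 13 to 16 as an additive term), 38 (animals 1 to 12) and 20 to 143 with 1 array left out. In WT there were 111, with 69, 61 (only WT arrays), 257, 72 and 22 (without high Xist), and 27 to 134 with 1 array left out. Averaged over genotypes there were 526, with 926 under the additive term and 334 to 559 with 1 array left out, lowest without rostral KO 8. For the difference of the KO effects the additive term gave 1. For KO against WT in caudal cortex it gave 4 and omissions gave 0 to 1. In rostral cortex raising values to the table median gave 4, array weights gave 2 and omissions 0 to 1. Averaged over regions the 4 genes became 2 (values raised, no trend or a sex-linked covariate), 10 (array weights), 20 (additive term), 1 (animals 1 to 12 or without high Xist) and 1 to 4 with 1 array left out. Nrn1 has no other probe set to try. Of the 10 genes most like Nrn1, 3 were shared by Spearman correlation, 0 within KO, 0 within WT and 3 without the 2 farthest arrays. No paired analysis was possible because no 2 groups share an animal number.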
